A study of Arabidopsis thaliana with 10 samples.

Results

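Glucosinolates are sulfur-rich thioglucosides that Arabidopsis thaliana makes from methionine (the aliphatic branch) and tryptophan (the indole branch), and 37 genes of their synthesis and breakdown are described here. The genes were chosen by locus and cover 8 roles: MYB regulators of the aliphatic branch (3 genes) and of the indole branch (3), methionine chain elongation (9), aliphatic (3) and indole (3) core P450s, later core enzymes (7), side chain modification (4) and breakdown (5). Of the 37 loci, 19 were listed in the expression table of the 4 h experiment, 35 in that of the 10 d experiment and 18 in both. AOP3 was in neither table, MYB122 was only in the 4 h table, and 17 genes were only in the 10 d table. The tables together list 18411 genes. The 37 loci, and the lists of related genes used below, were chosen with earlier results of these data known. Their counts beside the shares of all genes are therefore description only.

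In background, R2R3-MYB proteins switch on the pathway: MYB28, MYB29 and MYB76 act on the aliphatic branch and MYB34, MYB51 and MYB122 on the indole branch. Methionine side chains are first lengthened, CYP79 and CYP83 P450s then turn the amino acids into activated aldoximes, and shared later enzymes add sulfur, cleave, glucosylate and sulfate the core. When tissue is damaged, thioglucosidases called myrosinases release unstable products, whose fate as isothiocyanates or nitriles is set by specifier proteins.

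All seedlings were Col-0, whole, and carried either a DIG1, a DIG2 or a GFP construct. Dexamethasone, a synthetic glucocorticoid that turns on transgenes built to respond to it, was given to every group, and there was no group without it. The 5 groups held 2 libraries each. DIG1 and DIG2 seedlings aged 3 d and raised in darkness had 10 µM dexamethasone for 4 h, as did GFP seedlings, which are the control of that experiment. DIG1 seedlings raised in long days on plates with 500 nM dexamethasone for 10 d were set against GFP seedlings raised likewise. DIG proteins are described in the series title as transcription factors that respond to abscisic acid. Whether a difference between lines arose with induction or was there beforehand cannot be told apart in this design. The label text gives the plate dose in conflicting units in its growth and treatment fields, and the treatment value is printed. Separate cultures are not named for the replicates in any label; the p-values below therefore rest on the spread among these libraries alone, which could be technical. How many independent transformants stand behind each line is not given in the sources used here.

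Reads recovered on listed genes ranged from 9989643 to 19040139 per library. DIG1, here the locus AT3G48510, had 1716 and 1438 RPKM (reads normalised for the length of the gene and the size of the library) in DIG1 seedlings at 4 h and 1891 and 1775 at 10 d, and at most 1.90 RPKM in any library of another line. The DIG1 sample titles print a different locus, AT3G45810. DIG2 (AT5G50360) had 4879 and 2685 RPKM in DIG2 seedlings and at most 2.54 RPKM in the other 4 h libraries. At 10 d, DIG1 replicate 2 was lower than DIG1 replicate 1 in the root markers COBL9 (0.078 against 1.06 RPKM) and CASP1 (1.17 against 2.11 RPKM). The sum of all 5 root markers hardly differed, at 34.7 RPKM in replicate 2 and 35.5 in replicate 1. Calls at 10 d that were lost without DIG1 replicate 2 are marked below.

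Below, a gene rose or fell where its limma adjusted p was under 0.05 over all genes of its table. Each log2 change is a difference on the log2(RPKM + 0.5) scale with its standard error, which understates changes of low genes. With 2 libraries against 2, no permutation test of a single gene can go below p = 0.3333. DIG1 and DIG2 at 4 h were set against the same GFP libraries, so their results are not independent of each other.

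After 10 d on dexamethasone, nearly the whole listed pathway was lower in DIG1 seedlings than in GFP seedlings. Of the 35 genes measured, 30 fell and 3 rose, and 26 of these 33 calls held in each of the 4 fits that left out 1 library. The background of that comparison is wide: 31.2% of all 17433 genes fell and 31.9% rose. By the authors' rule a listed gene reached 2 CPM, a count relative to the size of the library, in 2 or more libraries, and 5 of the 35 genes (MYB76, MAM3, GSTF11, ESP and CYP81F2) met that rule only with the libraries of the group where they are high. Of the other 30 genes, 26 fell and 2 rose, where 25.1% and 34.1% of all genes listed without help of a single group did so. Falls of 1 or more on the log2 scale were made by 28 of the 35 genes, where 19% of all genes did so. MYB76, MAM3, GSTF11 and ESP are among the 28, so part of that share was set by the listing rule. The median log2 change of the 35 was −1.63, and that of all genes was 0.0469. Both DIG1 libraries lay below both GFP libraries in 31 of the 35 genes and above them in 3, as they did in 40.2% and 44.2% of all genes. In the authors' deposited table, at an FDR under 0.05, 31 of the 35 genes were lower in DIG1 seedlings and 3 higher, where 31.1% and 31.5% of all genes were. In whole seedlings, fewer cells of a type and less RNA per cell cannot be told apart.

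**Figure D1:**
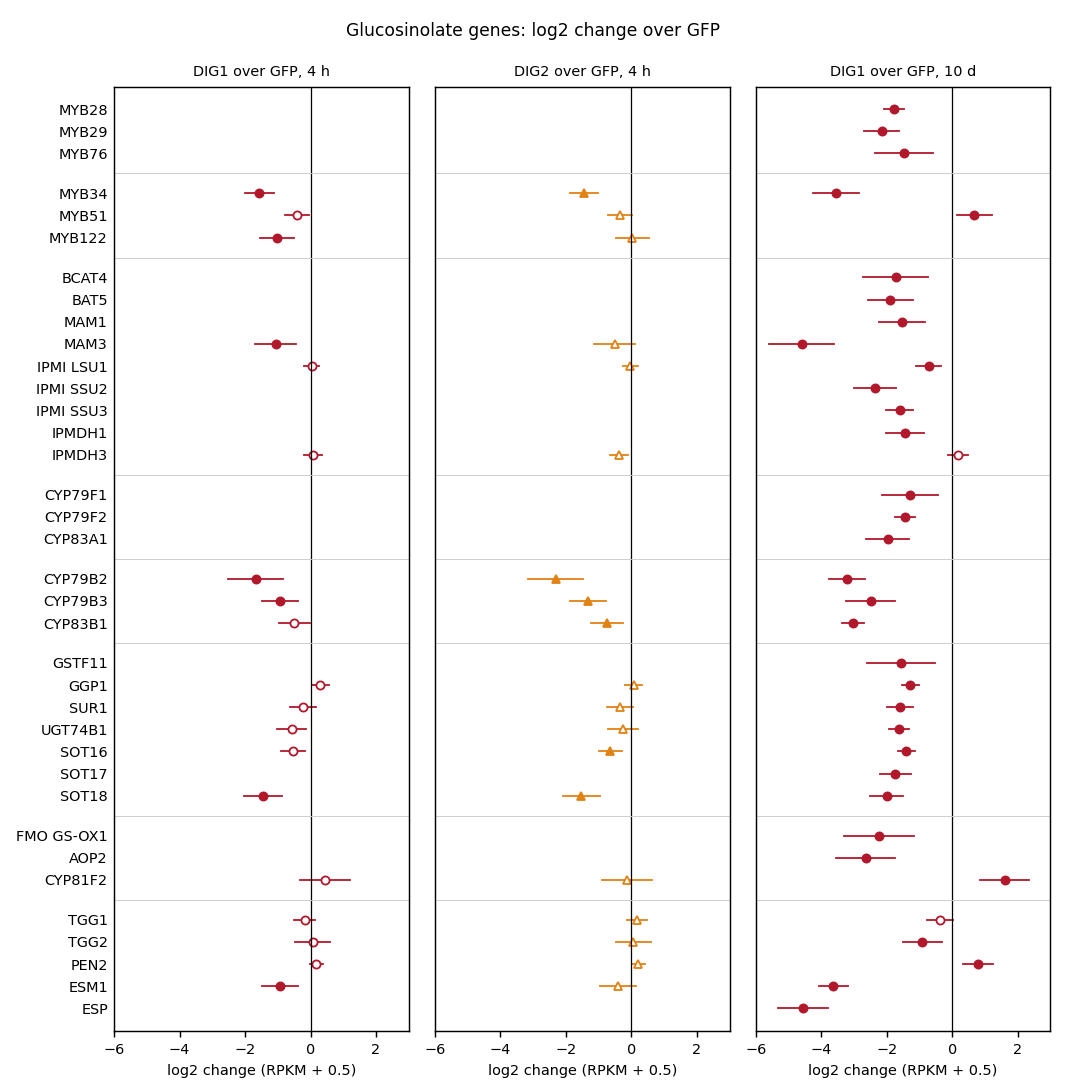
Log2 change over GFP on the log2(RPKM + 0.5) scale for each measured gene (rows, grouped by role from the aliphatic MYBs at the top to breakdown at the bottom) in DIG1 at 4 h, DIG2 at 4 h and DIG1 at 10 d. Points are limma estimates with 95% intervals, filled where the adjusted p was under 0.05, and rows with no point were not in that table. The 10 d panel has 30 filled points left of 0 and 3 right of it.

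The aliphatic regulators fell together at 10 d. MYB28 (AT5G61420) had 15.8 and 12.9 RPKM in DIG1 seedlings, against 50.2 and 49.97 RPKM in GFP seedlings (log2 change −1.78 ± 0.12, limma adjusted p = 0.000439). MYB29 (AT5G07690) had 11.3 and 7.999 RPKM in DIG1 seedlings, against 50.7 and 38.4 in GFP seedlings (−2.16 ± 0.21, limma adjusted p = 0.000962). MYB76 (AT5G07700), the weakest of the group in level, had 1.32 and 0.548 RPKM in DIG1 seedlings, against 4.23 and 2.61 in GFP seedlings (−1.48 ± 0.35, limma adjusted p = 0.016). The DIG1 and GFP libraries did not overlap in any of the 3 genes. The MYB76 call was lost without GFP replicate 1 (adjusted p = 0.0839). MYB29 and MYB76 are neighbours on chromosome 5, 1442 bases apart. None of the 3 was listed in the 4 h table of dark-grown seedlings.

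The indole regulators went opposite ways at 10 d. MYB34 (AT5G60890), which drives basal indole glucosinolate synthesis, had 4.98 and 2.59 RPKM in DIG1 seedlings, against 49.1 and 47.2 RPKM in GFP seedlings (−3.56 ± 0.28, limma adjusted p = 0.000563). MYB51 (AT1G18570), which acts in the same branch and is known for its role in defence, had 3.28 and 3.91 RPKM in DIG1 seedlings, against 2.45 and 1.71 in GFP seedlings (0.68 ± 0.21, limma adjusted p = 0.0371). In GFP seedlings MYB34 was therefore the far more abundant of the pair, while in DIG1 seedlings their ranges overlapped. The MYB51 call was lost without DIG1 replicate 1, DIG1 replicate 2 or GFP replicate 2 (adjusted p up to 0.145), and MYB34 kept its call in every such fit.

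Chain elongation adds methylene groups to methionine before the core is built, and 8 of its 9 listed genes fell at 10 d. BCAT4 (AT3G19710), the first transaminase, had 39.7 and 22.8 RPKM in DIG1 seedlings, against 139.4 and 72.4 in GFP seedlings (−1.72 ± 0.39, limma adjusted p = 0.0136). BAT5 (AT4G12030), which carries the keto acids into the plastid, had 12.5 and 7.69 RPKM in DIG1 seedlings, against 44.6 and 32.1 in GFP seedlings (−1.89 ± 0.27, limma adjusted p = 0.00291). MAM1 (AT5G23010), a methylthioalkylmalate synthase that makes short chains, had 73.5 and 56.4 RPKM in DIG1 seedlings, against 245.8 and 144.6 in GFP seedlings (−1.54 ± 0.28, limma adjusted p = 0.00638). All 3 were lower in both DIG1 libraries than in either GFP library, and BCAT4 lost its call without GFP replicate 1 (adjusted p = 0.057).

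MAM3 (AT5G23020), the synthase that also makes long chains, had the lowest fitted change of the 35 genes, just past ESP, an order that flips with a pseudocount of 0.1 RPKM (−5.93 for MAM3 and −6.48 for ESP). It had 0.521 and 0.0310 RPKM in DIG1 seedlings, from 14 and 1 reads, against 22.0 and 13.5 RPKM in GFP seedlings (−4.59 ± 0.39, limma adjusted p = 0.000687). Summed over libraries and scaled to library size, its reads in DIG1 seedlings were 1.5% of those in GFP seedlings (exact 95% interval 0.836% to 2.49%, counting error only). MAM3 lies 11144 bases from MAM1 on chromosome 5, and the coding sequences of the pair share 83.8% of aligned bases. MAM3, MYB76 and ESP reached 2 CPM in no DIG1 library, so these 3 had to differ to be listed. GSTF11 reached it in 1 DIG1 library and both GFP libraries.

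The listed isomerase genes of elongation all fell, and of the listed dehydrogenase genes IPMDH1 did. IPMI SSU2 (AT2G43100), a small subunit of the isomerase used in glucosinolate synthesis, had 36.6 and 30.8 RPKM in DIG1 seedlings, against 226.4 and 136.1 in GFP seedlings (−2.37 ± 0.25, limma adjusted p = 0.00124). IPMI SSU3 and IPMDH1, the dehydrogenase of the aliphatic pathway, fell by 1.60 and by 1.44 on the log2 scale. IPMI LSU1 (AT4G13430), the large subunit shared with leucine synthesis, had 125.1 and 125.5 RPKM in DIG1 seedlings, against 235.9 and 180.2 in GFP seedlings, a smaller change (−0.72 ± 0.15, limma adjusted p = 0.01). IPMDH3 (AT1G31180), a dehydrogenase of leucine synthesis, had 48.7 and 58.0 RPKM in DIG1 seedlings, against 48.7 and 45.1 in GFP seedlings, and did not pass the test (0.18, 95% interval −0.12 to 0.48, limma adjusted p = 0.231). Its libraries overlapped, alone among the 35 genes. IPMDH1 and IPMDH3 share 94.98% of aligned coding bases, with an identical run of 95 bases, so how the counting split reads between them is uncertain.

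All 3 aliphatic P450 genes fell at 10 d. CYP79F1 (AT1G16410), which makes aldoximes from elongated methionine, had 55.5 and 41.0 RPKM in DIG1 seedlings, against 162.9 and 83.4 in GFP seedlings (−1.28 ± 0.34, limma adjusted p = 0.0225). Its neighbour CYP79F2 (AT1G16400), which prefers long chains, had 6.13 and 5.31 RPKM in DIG1 seedlings, against 16.7 and 16.1 in GFP seedlings (−1.45 ± 0.12, limma adjusted p = 0.000701). CYP83A1 (AT4G13770), the next enzyme, had 47.2 and 34.7 RPKM in DIG1 seedlings, against 202.7 and 127.4 in GFP seedlings (−1.98 ± 0.26, limma adjusted p = 0.00232). The groups did not overlap in any of these 3 genes. CYP79F1 lost its call without DIG1 replicate 2 or GFP replicate 1 (adjusted p up to 0.0783), and it shares 91.9% of aligned coding bases with CYP79F2, so reads of that pair are also uncertain.

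The indole P450s fell further than the aliphatic ones, with log2 changes from −3.21 to −2.49, against −1.98 to −1.28; the difference between the sets was not tested. CYP79B2 (AT4G39950) and CYP79B3 (AT2G22330), the tryptophan to indole-3-acetaldoxime enzymes, lead into this branch. CYP79B2 had 9.64 and 6.23 RPKM in DIG1 seedlings, against 70.8 and 81.7 in GFP seedlings (−3.21 ± 0.21, limma adjusted p = 0.000419). CYP79B3 had 16.8 and 9.11 RPKM in DIG1 seedlings, against 64.3 and 80.3 in GFP seedlings (−2.49 ± 0.29, limma adjusted p = 0.00165). CYP83B1 (AT4G31500), which commits the aldoxime to glucosinolates, had 17.1 and 20.6 RPKM in DIG1 seedlings, against 145.2 and 170.9 in GFP seedlings (−3.04 ± 0.14, limma adjusted p = 0.00024). Every DIG1 library was far below every GFP library in these genes, and each kept its call when any 1 library was left out.

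All 7 later core genes fell at 10 d, over a narrower range of log2 change than the P450s (−1.99 to −1.29). SUR1 (AT2G20610), the C-S lyase, had 35.3 and 28.5 RPKM in DIG1 seedlings, against 106.7 and 87.0 in GFP seedlings (−1.59 ± 0.15, limma adjusted p = 0.000933). UGT74B1 (AT1G24100), the thiohydroximate glucosyltransferase, had 22.5 and 21.9 RPKM in DIG1 seedlings, against 76.4 and 63.5 in GFP seedlings (−1.63 ± 0.12, limma adjusted p = 0.000476). GGP1 (AT4G30530), a gamma-glutamyl peptidase, had 68.6 and 61.4 RPKM in DIG1 seedlings, against 165.1 and 153.0 in GFP seedlings (−1.29 ± 0.10, limma adjusted p = 0.000589). The sulfotransferases that finish the core fell as well. SOT16 (AT1G74100), which prefers indole substrates, had 36.0 and 35.8 RPKM in DIG1 seedlings, against 89.8 and 101.4 in GFP seedlings (−1.40 ± 0.10, limma adjusted p = 0.000444). SOT18 (AT1G74090), which prefers aliphatic ones, had 15.8 and 11.4 RPKM in DIG1 seedlings, against 62.2 and 48.7 in GFP seedlings (−1.99 ± 0.20, limma adjusted p = 0.000998). SOT17 and GSTF11, a glutathione transferase of the aliphatic branch, fell by 1.74 and by 1.56 on the log2 scale. No DIG1 library reached the lower GFP library in any of the 7. GSTF11 lost its call without DIG1 replicate 2 or GFP replicate 1 (adjusted p up to 0.115).

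Of the 3 side chain genes measured at 10 d, 2 fell and 1 rose. FMO GS-OX1 (AT1G65860), which oxidises the sulfur of aliphatic side chains, had 6.48 and 2.80 RPKM in DIG1 seedlings, against 28.7 and 17.0 in GFP seedlings (−2.24 ± 0.42, limma adjusted p = 0.00735). AOP2 (AT4G03060), an alkenyl-forming dioxygenase gene that is annotated in RefSeq as a transcribed pseudogene in Col-0, had 4.33 and 2.15 RPKM in DIG1 seedlings, against 27.6 and 17.4 in GFP seedlings (−2.65 ± 0.35, limma adjusted p = 0.00243). CYP81F2 (AT5G57220), which hydroxylates indole glucosinolates for the pathogen response, had 2.14 and 3.23 RPKM in DIG1 seedlings, against 0.342 and 0.772 in GFP seedlings (1.60 ± 0.30, limma adjusted p = 0.00722). Both its DIG1 libraries were above both GFP libraries. CYP81F2 reached 2 CPM in neither GFP library, where it had 7 and 24 reads, so it had to be higher in DIG1 seedlings to be in the 10 d table.

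**Figure D2:**
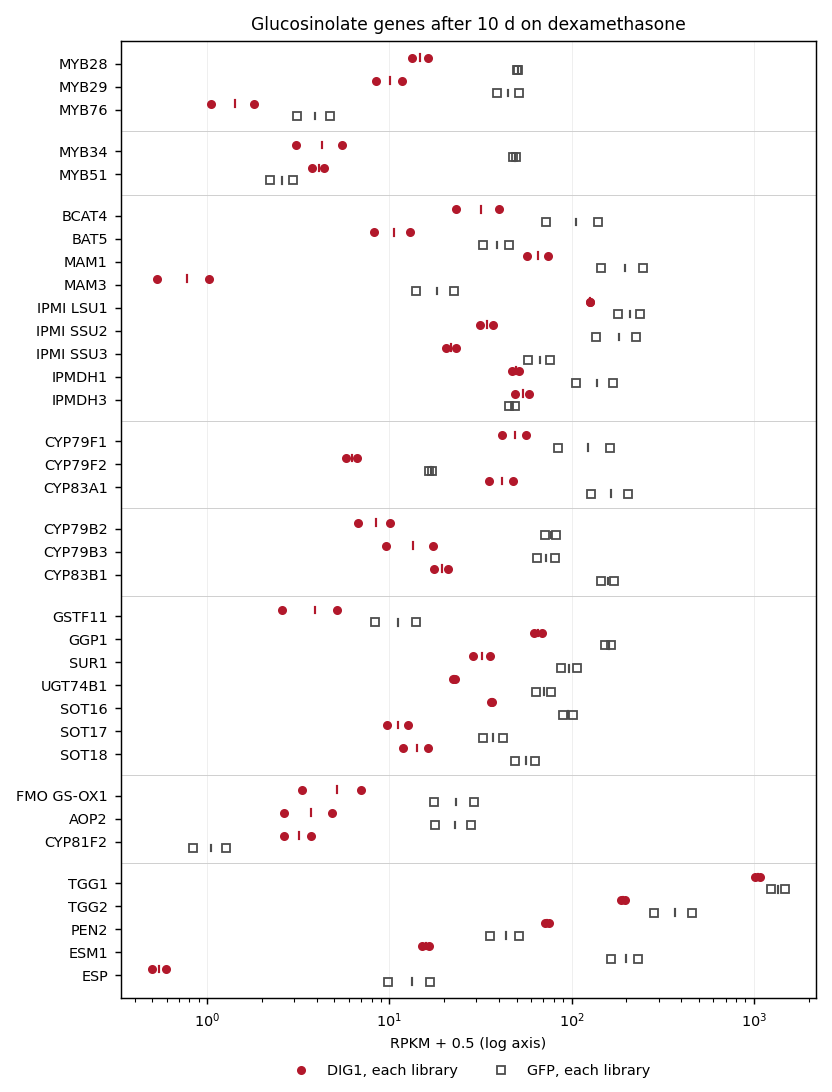
RPKM + 0.5 on a log axis for the 35 measured genes at 10 d, with DIG1 libraries as filled circles above GFP libraries as open squares in each row, and a short bar at each group mean. Only MYB51, CYP81F2 and PEN2 have both DIG1 libraries right of both GFP libraries, and IPMDH3 is the gene whose groups overlap.

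Among breakdown genes of the set, the most abundant myrosinase gene did not pass the test at 10 d. ESM1 and ESP, which steer the kind of product, fell, though ESP had to differ to be listed, as given above. Other specifier genes, from the related lists, are given below. TGG1 (AT5G26000), the myrosinase of guard cells and myrosin cells, had 1083 and 1015 RPKM in DIG1 seedlings, against 1478 and 1247 RPKM in GFP seedlings, and did not pass the test (−0.37, 95% interval −0.78 to 0.04, limma adjusted p = 0.0937). The authors' deposited table gives TGG1 a log2 change of −0.38 with an FDR of 0.0364, and it was also called on recovered reads (adjusted p = 0.0383). TGG2 (AT5G25980), its neighbour and partner, had 195.1 and 185.7 RPKM in DIG1 seedlings, against 455.0 and 281.7 in GFP seedlings (−0.91 ± 0.23, limma adjusted p = 0.021), and lost its call without DIG1 replicate 2 (adjusted p = 0.0639). TGG1 alone made up 49.9% and 51.2% of the summed RPKM of all 35 genes in DIG1 seedlings, against 30.5% and 33.1% in GFP seedlings. TGG1 was the highest gene of the set in all 5 groups.

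ESM1 (AT3G14210), which favours isothiocyanate over nitrile release, had 14.6 and 16.0 RPKM in DIG1 seedlings, against 231.7 and 164.9 RPKM in GFP seedlings (−3.63 ± 0.18, limma adjusted p = 0.000262). ESP (AT1G54040), the epithiospecifier that directs breakdown to nitriles, had 0.0950 and 0 RPKM in DIG1 seedlings, from 2 and 0 reads, against 16.3 and 9.32 RPKM in GFP seedlings. Its reads in DIG1 seedlings, summed and scaled to library size, were 0.357% of those in GFP seedlings (exact 95% interval 0.0431% to 1.29%, counting error only). Its fitted change (−4.56 ± 0.30, limma adjusted p = 0.000418) depends on the added 0.5 RPKM and is no bound. ESM1 and ESP were thus both lower in each DIG1 library than in either GFP library. These are RNA levels, and whether either protein was active in these Col-0 seedlings was not measured. PEN2 (AT2G44490), an atypical myrosinase that acts on indole glucosinolates in pathogen defence, had 70.9 and 74.8 RPKM in DIG1 seedlings, against 35.4 and 50.7 in GFP seedlings (0.77 ± 0.18, limma adjusted p = 0.015). The PEN2 call was lost without DIG1 replicate 2 (adjusted p = 0.051). Without that library 1 of the 3 rises, CYP81F2, was left, the gene listed only through its DIG1 libraries.

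MYB51, CYP81F2 and PEN2, the 3 genes that rose, are all known from indole glucosinolates in pathogen defence. Other genes linked to indole glucosinolates were read from lists of related genes. CYP81F4 (AT4G37410), which with IGMT5 (AT1G76790) makes 1-methoxy indole glucosinolate, had 4.35 and 2.46 RPKM in DIG1 seedlings, against 290.1 and 185.8 in GFP seedlings (−5.94 ± 0.31, limma adjusted p = 0.000276). IGMT5 had 4.27 and 1.82 RPKM in DIG1 seedlings, against 42.8 and 40.04 in GFP seedlings (−3.65 ± 0.34, limma adjusted p = 0.000846). IGMT2 (AT1G21120), a methyltransferase of the 4-methoxy route that CYP81F2 opens, had 21.4 and 14.5 RPKM in DIG1 seedlings, against 0.496 and 1.06 in GFP seedlings (3.86 ± 0.30, limma adjusted p = 0.000551). The 2 CPM rule was not checked for list genes. IGMT2, so low in GFP seedlings, may like CYP81F2 be listed only through its DIG1 libraries. IGMT1 rose by a log2 change of 1.69 (limma adjusted p = 0.000421). CYP81F1 and CYP81F3, which hydroxylate indole glucosinolates as CYP81F2 does, fell by 1.37 and by 1.53, so genes of the 4-methoxy route moved both ways. The CYP81F3 call did not hold when either GFP library was left out (adjusted p up to 0.063). PEN3 (AT1G59870), the transporter that works with PEN2, had 134.0 and 140.3 RPKM in DIG1 seedlings, against 27.5 and 41.3 in GFP seedlings (2.01 ± 0.20, limma adjusted p = 0.000971). IGMT1 and IGMT2 are close paralogs, and how the counting split their reads is uncertain.

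**Figure D3:**
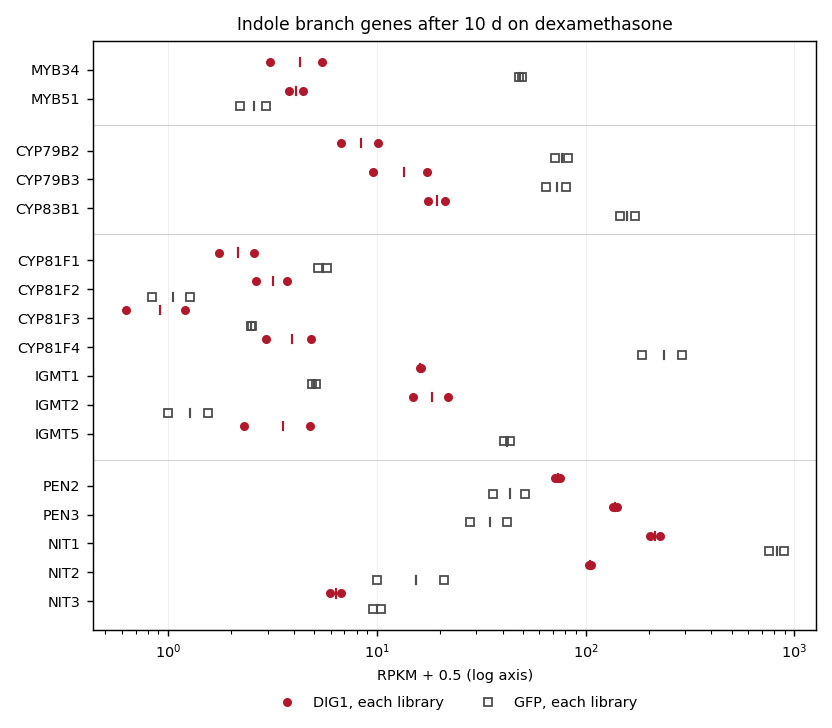
RPKM + 0.5 on a log axis for indole branch genes at 10 d, with regulators, core P450s, modifying enzymes and breakdown genes from top to bottom, DIG1 libraries as filled circles and GFP libraries as open squares, and bars at the group means. MYB34, the core P450s, CYP81F4 and IGMT5 lie left in DIG1 seedlings, and CYP81F2, IGMT1, IGMT2, PEN2 and PEN3 lie right.

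The wider pathway changed in both directions at 10 d. Of 18 measured other synthesis and modification enzymes, 14 fell and 4 rose, where 31.2% and 31.9% of all genes did. Their median log2 change was −1.32, and that of all genes was 0.0469. The glutathione transferase genes GSTF9 and GSTF10 and the S-oxygenase genes FMO GS-OX2 and FMO GS-OX3 fell, with log2 changes from −3.80 to −2.28. FMO GS-OX4 fell too, but lost its call without DIG1 replicate 2 or GFP replicate 1. GGP3 and IPMDH2 rose by log2 changes of 0.75 and 0.33 (limma adjusted p = 0.00318 and 0.0497). IPMDH2 lost its call in fits without DIG1 replicate 2 or without either GFP library (adjusted p up to 0.197). All 3 transporter genes fell. GTR3 (AT1G18880) had 0.344 and 0.401 RPKM in DIG1 seedlings, against 15.6 and 16.1 in GFP seedlings (−4.23 ± 0.15, limma adjusted p = 0.000191). GTR2 and GTR1, the main importers of glucosinolates into phloem, fell by 1.11 and by 0.64. GTR3 and FMO GS-OX2, low in DIG1 seedlings, may have met the 2 CPM rule only through their GFP libraries, which was not checked.

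Other breakdown genes moved both ways, with 3 of 9 measured rising and 3 falling, shares near those of all genes (31.9% and 31.2%). NSP1, a nitrile specifier gene, fell by 2.56 on the log2 scale (limma adjusted p = 0.000716), and NSP5 rose by a log2 change of 0.47 (limma adjusted p = 0.00586). The nitrilase gene NIT2 had 105.2 and 103.3 RPKM in DIG1 seedlings, against 9.53 and 20.4 in GFP seedlings (2.85 ± 0.34, limma adjusted p = 0.00167). Its tandem relatives NIT1 and NIT3 fell by 1.93 and by 0.66, and how the counting split reads of these close paralogs is uncertain. NIT3 lost its call without GFP replicate 1 (adjusted p = 0.0623). The root myrosinase genes TGG4 and TGG5 had 3.11 and 4.02 RPKM in DIG1 replicate 1, 0.064 and 0.065 in DIG1 replicate 2, and between 4.83 and 7.77 in GFP seedlings, and did not pass the test.

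Sulfur supply genes were mostly lower at 10 d. Of 12 genes of sulfate activation and reduction, 10 fell and 1 rose (median log2 change −1.37), where 31.2% and 31.9% of all genes did. APK2 (AT4G39940), an adenylyl-sulfate kinase that makes the sulfate donor of glucosinolate synthesis, had 21.2 and 13.1 RPKM in DIG1 seedlings, against 116.6 and 91.1 in GFP seedlings (−2.59 ± 0.25, limma adjusted p = 0.000933). The reductase gene APR2 had 14.6 and 22.0 RPKM in DIG1 seedlings, against 159.2 and 159.4 in GFP seedlings (−3.11 ± 0.20, limma adjusted p = 0.000396), and APR1 fell by 2.72. APR3 went the other way (0.78 ± 0.10, limma adjusted p = 0.00186). Of 5 genes of the low sulfur response, 2 rose and 1 fell, where 31.9% and 31.2% of all genes did. The beta-glucosidase genes BGLU30 and BGLU28, which are induced by sulfur shortage and implicated in glucosinolate breakdown, rose by log2 changes of 5.96 and 3.74 (limma adjusted p = 0.000225 and 0.000253). BGLU30 had 128.0 and 122.6 RPKM in DIG1 seedlings, against 1.05 and 2.12 in GFP seedlings. BGLU28, with a mean of 0.337 RPKM in GFP seedlings, may have met the 2 CPM rule only through its DIG1 libraries, which was not checked. SDI2, of the same low sulfur response list, fell by 1.88. Its relative SDI1, also in the list, holds back glucosinolate synthesis. SDI1 had a log2 change of −1.64, with both DIG1 libraries below both GFP libraries, but did not pass the test. Genes of the low sulfur response thus moved both ways.

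Of 6 tryptophan synthesis genes, 4 fell (PAT1, TSA1, ASB1 and IGPS, by 1.16 to 0.32 on the log2 scale), where 31.2% of all genes fell. The smallest of these changes, that of IGPS, lost its call in each fit that left out 1 library (adjusted p up to 0.141). Of the jasmonate-linked bHLH partners of the MYBs, MYC4 fell by 0.40, and lost its call without DIG1 replicate 2 or either GFP library (adjusted p up to 0.155), while MYC2 and MYC3 did not pass the test. The camalexin gene PAD3, which draws on the same indole aldoxime, had 0.040 and 0.067 RPKM in DIG1 seedlings, against 1.88 and 1.30 in GFP seedlings (−1.90 ± 0.24, limma adjusted p = 0.00193). PAD3, so low in DIG1 seedlings, may have met the 2 CPM rule only through its GFP libraries, which was not checked.

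**Figure D4:**
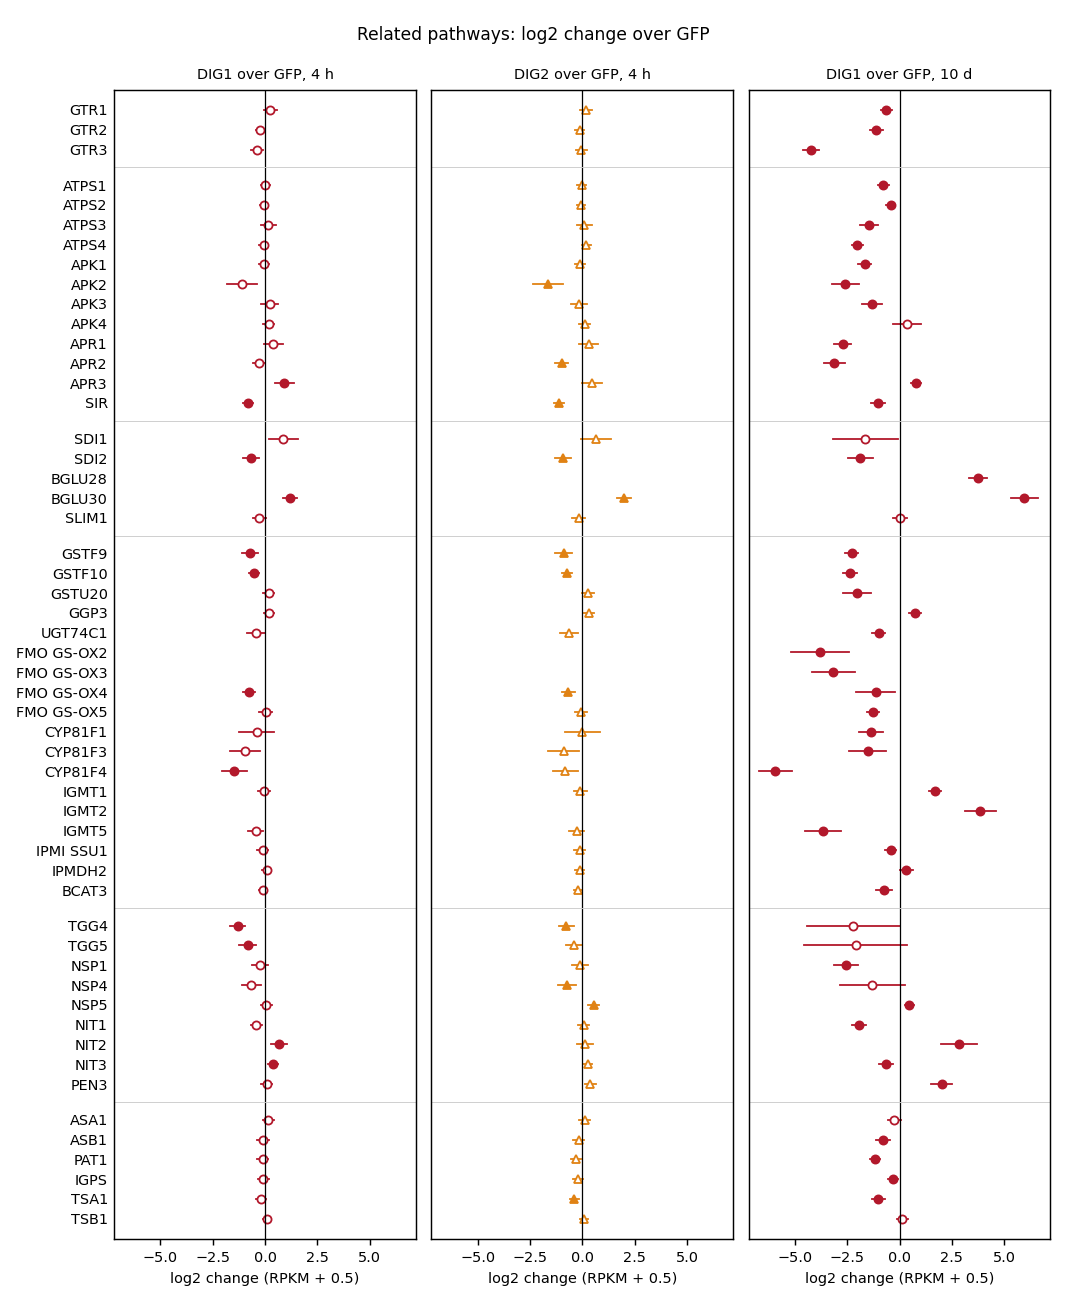
Log2 change over GFP with 95% intervals for related genes (transporters, sulfate activation and reduction, low sulfur response, other synthesis and modification enzymes, other breakdown genes and tryptophan synthesis, from top to bottom) in DIG1 at 4 h, DIG2 at 4 h and DIG1 at 10 d. Filled points had an adjusted p under 0.05, and the 10 d panel spans from CYP81F4 at −5.94 to BGLU30 at 5.96.

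Some cell type markers also changed at 10 d, where 31.2% of all genes fell and 31.9% rose. Others hardly did: means in DIG1 and GFP seedlings were 26.2 and 26.4 RPKM for SCR (root) and 12.87 and 12.83 for APL (phloem). Of 5 root markers 3 fell and 0 rose: PHT1;1 had 0.863 and 0.469 RPKM in DIG1 seedlings, against 35.8 and 42.1 in GFP seedlings. The fall of SHR lost its call without DIG1 replicate 2 or GFP replicate 2. PHT1;1 and CASP1, low in DIG1 seedlings, may have met the 2 CPM rule only through their GFP libraries, which was not checked. Summed root marker levels were 35.5 and 34.7 RPKM in DIG1 seedlings, against 84.1 and 104.1 in GFP seedlings. Of 4 green tissue markers 3 fell and 0 rose, with summed levels of 8583 and 10905 RPKM in DIG1 seedlings, against 24341 and 21929 in GFP seedlings. Of 6 guard cell and myrosin cell markers 1 rose and 2 fell, and the sums were 34.0 and 32.4 RPKM in DIG1 seedlings, against 39.7 and 41.6 in GFP seedlings. The rise, of FAMA, lost its call in each fit that left out 1 library. The fall of SLAC1 lost its call without DIG1 replicate 1 or either GFP library. Of 2 phloem markers 1 fell, with sums of 46.2 and 36.9 RPKM in DIG1 seedlings, against 80.9 and 77.4 in GFP seedlings. No marker in the 10 d table was listed at 0. The part of these shifts in the changes of the glucosinolate genes was not tested.

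In the dark-treated seedlings, sampled at 4 h, several indole genes were lower with DIG1 than with GFP. Of the 19 genes measured, 7 fell and 0 rose by limma (1, GGP1, was higher at an unadjusted p under 0.05, and 0 on recovered reads), where 5.54% of all 17371 genes fell and 3.01% rose. Without MYB122, CYP79B2 and MAM3, which met the 2 CPM rule only with the libraries of 1 group, 4 of 16 fell and 0 rose, where 5.32% and 2.95% of all genes that met the rule without help of a single group did. With those genes included, 5 of the 19 fell by 1 or more on the log2 scale, where 1.51% of all genes did. These 5 were MYB34, SOT18, MYB122, CYP79B2 and MAM3, so most of that count rests on the genes left out above. The fallen genes were MYB34, MYB122, CYP79B2, CYP79B3, SOT18, MAM3 and ESM1. The median log2 change of the 19 was −0.49, and that of all genes was −0.0030. Both DIG1 libraries lay below both GFP libraries in 13 of the 19 genes and above them in 2, where 26.5% and 25.2% of all genes did so. Of the 12 genes not called, MYB51, SOT16, CYP83B1, UGT74B1 and GGP1 had an unadjusted p under 0.05, and only GGP1 of these was higher in DIG1 seedlings. In the authors' deposited table, at an FDR under 0.05, 8 of the 19 were lower and 0 higher, where 7.08% and 4.14% of all genes were. The count rested on few libraries: without DIG1 replicate 2 or without GFP replicate 2 it was 1 gene, MYB34, without DIG1 replicate 1 it was 4, and without GFP replicate 1 it was 8.

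In DIG2 seedlings at 4 h, 6 of the 19 genes fell and 0 rose by limma (1, PEN2, was higher at an unadjusted p under 0.05, and 0 on recovered reads), where 7.48% of all genes fell and 7.37% rose. Without the same 3 genes 5 of 16 fell and 0 rose, where 7.27% and 7.46% of all such genes did. With those genes included, 4 of the 19 fell by 1 or more, where 1.57% of all genes did. These 4 were MYB34, SOT18, CYP79B3 and CYP79B2, the last of them among the genes left out above. The fallen genes were MYB34, all 3 indole core P450s, SOT16 and SOT18. The median log2 change was −0.35, and that of all genes was −0.0084. Both DIG2 libraries lay below both GFP libraries in 9 of the 19 genes and above them in 2, where 30.9% and 29.3% of all genes did so. In the authors' deposited table, at an FDR under 0.05, 7 of the 19 were lower and 0 higher, where 9.41% and 9.38% of all genes were. Without DIG2 replicate 1, TGG2 was called as higher in DIG2 seedlings (adjusted p = 0.0427); with all libraries its change was 0.06 (adjusted p = 0.899).

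Of the indole regulators at 4 h, MYB34 had the lowest adjusted p in both lines. It had 8.97 and 5.53 RPKM in DIG1 seedlings and 7.07 and 8.42 RPKM in DIG2 seedlings, against 20.5 and 23.5 RPKM in GFP seedlings. Its log2 change was −1.57 ± 0.20 in DIG1 (limma adjusted p = 0.0013) and −1.45 ± 0.20 in DIG2 (limma adjusted p = 0.00153). All 4 libraries of the DIG lines lay below both GFP libraries, and both calls held in every fit that left out 1 library. MYB51 had 9.85 and 13.9 RPKM in DIG1 seedlings and 11.6 and 13.1 in DIG2 seedlings, against 14.4 and 17.5 in GFP seedlings, and passed the test in neither line (−0.42 and −0.35, limma adjusted p = 0.166 and 0.193). MYB122 (AT1G74080), the weakest indole regulator in level, had 0.713 and 0.454 RPKM in DIG1 seedlings and 1.73 and 1.73 in DIG2 seedlings, against 1.37 and 2.06 in GFP seedlings. It fell in DIG1 (−1.02 ± 0.23, limma adjusted p = 0.0226), from 10 and 7 reads in DIG1 seedlings, but not in DIG2 (0.03, limma adjusted p = 0.95). The DIG1 call of MYB122 was lost without DIG1 replicate 2 or GFP replicate 2 (adjusted p up to 0.198).

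CYP79B2 had 0.692 and 0.674 RPKM in DIG1 seedlings and 0.0973 and 0.480 RPKM in DIG2 seedlings, against 1.97 and 5.34 RPKM in GFP seedlings. Its log2 change was −1.68 ± 0.38 in DIG1 (limma adjusted p = 0.0223) and −2.31 ± 0.38 in DIG2 (limma adjusted p = 0.00382). Reads were few, from 3 in DIG2 replicate 1 to 131 in GFP replicate 2. The summed and scaled reads in DIG2 seedlings were 7.54% of those in GFP seedlings (exact 95% interval 4.14% to 12.8%, counting error only). CYP79B2 and MAM3 passed the 2 CPM rule of the 4 h table only with their GFP libraries. CYP79B3 had 2.61 and 2.66 RPKM in DIG1 seedlings and 1.78 and 1.98 in DIG2 seedlings, against 4.00 and 7.43 in GFP seedlings, and fell in DIG1 (−0.93 ± 0.24, limma adjusted p = 0.0427) and in DIG2 (−1.33 ± 0.24, limma adjusted p = 0.00677). CYP83B1 had 22.3 and 26.8 RPKM in DIG1 seedlings and 17.0 and 24.2 in DIG2 seedlings, against 27.2 and 44.0 in GFP seedlings. It did not pass the test in DIG1 (−0.49, limma adjusted p = 0.216) and fell in DIG2 (−0.76 ± 0.22, limma adjusted p = 0.0435). No library of either DIG line reached a GFP library in these 3 P450 genes. In DIG1 the calls of CYP79B2 and CYP79B3 were lost without DIG1 replicate 1, DIG1 replicate 2 or GFP replicate 2 (adjusted p up to 0.163 and 0.319). In DIG2 both held in every fit, and that of CYP83B1 was lost without DIG2 replicate 1, GFP replicate 2 or either DIG1 library (adjusted p up to 0.271).

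Because MYB34 and CYP79B2 had the lowest mean log2 change over both lines at 4 h, their upstream sequence is shown, the 300 bases before the annotated start in the RefSeq TAIR10.1 assembly, 5′ to 3′ on the gene's strand. Windows of CYP83A1 and SUR1 follow as the 2 genes of the set that hold all 3 searched motifs, and were chosen after the search. Capitals mark the motifs on either strand: CACGTG (G-box, bound by bHLH proteins such as MYC2 and by bZIP proteins), ACGTG (the core shared by abscisic acid response elements, which lies within CACGTG) and ACCNAAC (a MYB element).
MYB34 chr5:24493991-24494290 (+): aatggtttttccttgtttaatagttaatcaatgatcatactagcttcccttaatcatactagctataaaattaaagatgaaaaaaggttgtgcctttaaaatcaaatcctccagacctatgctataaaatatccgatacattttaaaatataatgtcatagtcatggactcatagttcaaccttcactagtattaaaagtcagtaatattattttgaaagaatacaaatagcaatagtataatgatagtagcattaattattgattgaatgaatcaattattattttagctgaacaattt
CYP79B2 chr4:18524742-18525041 (+): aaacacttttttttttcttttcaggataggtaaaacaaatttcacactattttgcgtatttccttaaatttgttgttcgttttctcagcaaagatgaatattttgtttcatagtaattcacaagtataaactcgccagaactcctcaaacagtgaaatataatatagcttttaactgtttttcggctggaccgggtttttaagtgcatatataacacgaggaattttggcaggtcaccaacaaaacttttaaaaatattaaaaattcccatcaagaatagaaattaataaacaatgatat
CYP83A1 chr4:7992430-7992729 (-): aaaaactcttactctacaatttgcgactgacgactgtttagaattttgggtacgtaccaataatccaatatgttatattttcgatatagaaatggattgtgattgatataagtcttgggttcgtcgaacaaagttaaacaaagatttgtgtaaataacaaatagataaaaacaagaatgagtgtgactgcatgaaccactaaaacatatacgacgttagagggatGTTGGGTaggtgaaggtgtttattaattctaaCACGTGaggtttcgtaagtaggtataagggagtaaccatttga
SUR1 chr2:8880441-8880740 (-): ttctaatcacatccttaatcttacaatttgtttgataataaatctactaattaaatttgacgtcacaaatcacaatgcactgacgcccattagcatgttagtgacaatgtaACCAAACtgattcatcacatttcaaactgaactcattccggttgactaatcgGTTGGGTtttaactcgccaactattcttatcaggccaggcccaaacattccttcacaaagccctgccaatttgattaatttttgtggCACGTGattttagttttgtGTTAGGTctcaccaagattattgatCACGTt
The windows of MYB34 and CYP79B2 held none of the 3 motifs. Among 36 genes of the set with a window (AOP2 was not counted), CACGTG was in 3 (8.33%), against 7.09% of 27443 windows of all genes. ACGTG was in 16 of the 36 (44.4%), against 25.6% of all windows, and ACCNAAC was in 7 (19.4%), against 16.8%. These matches describe letters only, and the difference between the shares was not tested.

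Of the later core genes at 4 h, SOT18 changed most. It had 2.22 and 1.46 RPKM in DIG1 seedlings and 1.203 and 2.29 RPKM in DIG2 seedlings, against 5.19 and 6.42 RPKM in GFP seedlings. It fell in DIG1 (−1.44 ± 0.26, limma adjusted p = 0.00813) and in DIG2 (−1.53 ± 0.26, limma adjusted p = 0.00474). SOT18 lies 151 bases from SOT16 and 5215 bases from MYB122 on chromosome 1. SOT16 had 24.1 and 24.6 RPKM in DIG1 seedlings and 20.2 and 25.3 in DIG2 seedlings, against 29.8 and 42.4 in GFP seedlings. It did not pass the test in DIG1 (−0.54, limma adjusted p = 0.0703; FDR 0.0108 in the authors' deposited table) and fell in DIG2 (−0.64 ± 0.16, limma adjusted p = 0.0258). All libraries of both DIG lines were below both GFP libraries in SOT18 and SOT16. The DIG1 call of SOT18 was lost without DIG1 replicate 2 or GFP replicate 2 (adjusted p up to 0.0733), and the DIG2 call of SOT16 without DIG2 replicate 1 or GFP replicate 2 (adjusted p up to 0.181). GGP1, SUR1 and UGT74B1 had log2 changes between −0.58 and 0.29 over both lines and passed no test. UGT74B1 was called lower in DIG1 when only the DIG1 and GFP libraries were fitted (adjusted p = 0.0418).

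**Figure D5:**
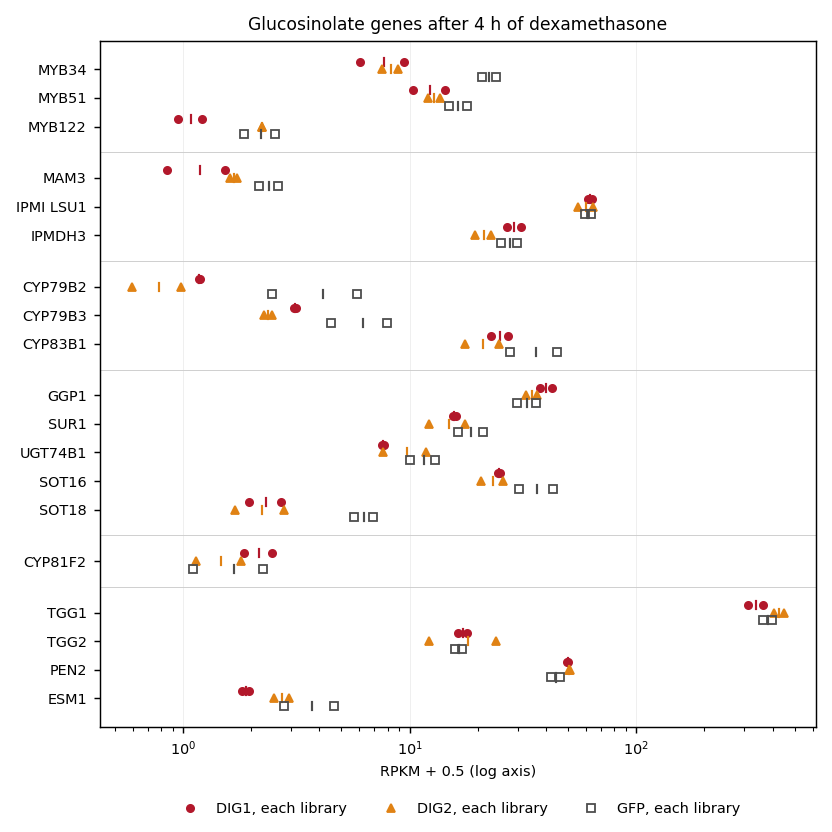
RPKM + 0.5 on a log axis for the 19 measured genes at 4 h, with DIG1 (circles), DIG2 (triangles) and GFP (open squares) from top to bottom in each row and bars at the group means. MYB34, MYB51, MAM3, CYP79B2, CYP79B3, CYP83B1, SOT16 and SOT18 have all libraries of both DIG lines left of both GFP libraries.

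MAM3 had 1.04 and 0.347 RPKM in DIG1 seedlings and 1.11 and 1.24 in DIG2 seedlings, against 2.14 and 1.66 in GFP seedlings at 4 h. It fell in DIG1 (−1.07 ± 0.28, limma adjusted p = 0.0438) and did not pass the test in DIG2 (−0.51, limma adjusted p = 0.252). ESM1 had 1.46 and 1.32 RPKM in DIG1 seedlings and 2.43 and 2.03 in DIG2 seedlings, against 2.30 and 4.15 in GFP seedlings. It fell in DIG1 (−0.93 ± 0.24, limma adjusted p = 0.0422) and did not pass the test in DIG2 (−0.40, limma adjusted p = 0.303). Both DIG1 libraries lay below both GFP libraries in both genes, while the DIG2 libraries overlapped GFP in ESM1. Both DIG1 calls were near the threshold: ESM1 lost its call without either DIG1 library or GFP replicate 2 (adjusted p up to 0.323), and MAM3 in every fit without 1 library but that without DIG1 replicate 1 (adjusted p up to 0.215). IPMDH3 and IPMI LSU1 passed no test at 4 h. IPMDH3 had a log2 change of −0.38 in DIG2 (limma adjusted p = 0.0683; FDR 0.0363 in the authors' deposited table).

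TGG1, TGG2 and PEN2 passed no test at 4 h. TGG1 had 361.5 and 311.8 RPKM in DIG1 seedlings and 406.6 and 447.4 RPKM in DIG2 seedlings, against 363.1 and 395.4 RPKM in GFP seedlings (−0.17 and 0.17, limma adjusted p = 0.543 and 0.47). It made up 54.8% and 51.5% of the summed RPKM of the 19 genes in DIG1 seedlings and 60.3% and 60.6% in DIG2 seedlings, against 53.8% and 51.5% in GFP seedlings. PEN2 had 48.9 and 49.6 RPKM in DIG1 seedlings and 50.1 and 50.4 in DIG2 seedlings, against 45.5 and 41.6 in GFP seedlings (0.18 and 0.20, limma adjusted p = 0.286 and 0.158). PEN2 libraries of both DIG lines lay above both GFP libraries, by little. CYP81F2 was between 0.610 and 1.97 RPKM in all 6 libraries, and its groups overlapped. The root myrosinase genes, from the list of other breakdown genes, were lower. TGG4 had 2.59 and 3.07 RPKM in DIG1 seedlings and 4.87 and 3.91 in DIG2 seedlings, against 7.35 and 8.11 in GFP seedlings, and fell in DIG1 (−1.31 ± 0.17, limma adjusted p = 0.00145) and in DIG2 (−0.76 ± 0.17, limma adjusted p = 0.0153). TGG5 had 5.10 and 7.50 RPKM in DIG1 seedlings and 9.55 and 7.69 in DIG2 seedlings, against 11.3 and 11.7 in GFP seedlings. It fell in DIG1 (−0.84 ± 0.18, limma adjusted p = 0.019) and did not pass the test in DIG2 (−0.40, limma adjusted p = 0.172). The DIG1 call of TGG4 held in every fit that left out 1 DIG1 or GFP library, that of TGG5 was lost without DIG1 replicate 1 or either GFP library (adjusted p up to 0.115), and the DIG2 call of TGG4 without DIG2 replicate 2 or either GFP library (adjusted p up to 0.112).

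Set directly against each other at 4 h, DIG1 and DIG2 seedlings differed in 1 of the 19 genes, which was lower in DIG1 (0 were higher, and IPMDH3 was so at an unadjusted p under 0.05), where 1.74% of all genes were lower and 0.622% higher in DIG1. That gene was MYB122 (−1.05 ± 0.23, limma adjusted p = 0.046), which reached 2 CPM in 2 DIG2 libraries, 1 GFP library and 0 DIG1 libraries and so was in the table only with its DIG2 libraries, where it is high. Of the 16 genes that met the rule without help of a single group, 0 were lower or higher in DIG1 by limma (TGG1 was lower and IPMDH3 higher at an unadjusted p under 0.05), where 1.73% and 0.621% of all such genes were. The MYB122 call was lost in every fit that left out 1 library (DIG1, DIG2 or GFP), and also with a pseudocount of 1 RPKM (adjusted p = 0.0507). For MYB34 the difference was −0.12 (95% interval −0.56 to 0.32), for CYP79B2 0.63 (−0.21 to 1.46) and for SOT18 0.08 (−0.49 to 0.66). These intervals do not show that the lines acted alike. Both DIG1 libraries lay below both DIG2 libraries in 5 of the 19 genes and above them in 5, where 23.8% and 22.2% of all genes did so.

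Some related genes also changed at 4 h. SIR (AT5G04590), the sulfite reductase gene, had 54.8 and 59.0 RPKM in DIG1 seedlings and 42.6 and 50.5 in DIG2 seedlings, against 101.1 and 98.5 in GFP seedlings (−0.81 and −1.10, limma adjusted p = 0.00155 and 0.000251). BGLU30 rose in DIG1 (1.18 ± 0.15, limma adjusted p = 0.00165) and in DIG2 (1.98 ± 0.15, limma adjusted p = 8.6e-05). SDI2, of the same low sulfur response list, fell in both lines, by 0.66 in DIG1 and by 0.90 in DIG2. Its DIG1 call was lost without either DIG1 library or GFP replicate 1, and its DIG2 call without GFP replicate 1. GSTF9 and GSTF10 fell in both lines, by 0.72 and by 0.53 in DIG1 and by 0.89 and by 0.74 in DIG2. CYP81F4 fell in DIG1 (−1.46 ± 0.27, limma adjusted p = 0.00904) and APK2 in DIG2 (−1.62 ± 0.32, limma adjusted p = 0.0101). The call of CYP81F4 was lost without DIG1 replicate 2 or GFP replicate 2, that of APK2 without GFP replicate 2, that of GSTF9 in DIG1 without DIG1 replicate 2 or either GFP library, that of GSTF10 in DIG1 likewise, and that of GSTF9 in DIG2 without DIG2 replicate 1 or GFP replicate 2. Of 12 sulfate genes 1 rose and 1 fell in DIG1, where 3.01% and 5.54% of all genes did, and 0 rose and 3 fell in DIG2, where 7.37% and 7.48% did. No transporter gene passed the test in either line.

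At 4 h none of 4 root markers passed the limma test in either line, and their sums were 268.6 and 243.9 RPKM in DIG1 seedlings and 290.3 and 355.7 in DIG2 seedlings, against 294.1 and 294.7 in GFP seedlings. Of all genes, 5.54% fell and 3.01% rose in DIG1, and 7.48% fell and 7.37% rose in DIG2. Of 4 green tissue markers 2 fell in DIG1 and 1 in DIG2. Their sums were 5917 and 3487 RPKM in DIG1 seedlings and 5261 and 5090 in DIG2 seedlings, against 6383 and 7389 in GFP seedlings. PORA, a chlorophyll synthesis gene of dark-grown seedlings, had 81.5 and 64.4 RPKM in DIG1 seedlings and 188.9 and 200.6 in DIG2 seedlings, against 879.2 and 980.7 in GFP seedlings. Guard cell and myrosin cell marker sums were 28.5 and 26.4 RPKM in DIG1 seedlings and 26.5 and 26.3 in DIG2 seedlings. In GFP seedlings they were 37.5 and 36.9 RPKM. Of these 6 markers 1 rose and 1 fell in DIG1, and 2 fell in DIG2. The rise, of GORK, lost its call without any 1 of the DIG1 or GFP libraries. So did the DIG1 fall of GLK1, a green tissue marker. The DIG2 fall of HT1, a guard cell marker, was lost without any 1 of the DIG2 or GFP libraries. The part of these shifts in the changes of the glucosinolate genes was not tested.

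Of the 18 genes in both tables, 6 fell in DIG1 at both times: MYB34, CYP79B2, CYP79B3, SOT18, MAM3 and ESM1. Of all 16393 genes listed at both times, 4% did so. Of the 6, MYB34 kept its 4 h call in every fit that left out 1 library and the other 5 did not. CYP79B2 and MAM3 were in the 4 h table only with their GFP libraries, and MAM3 in the 10 d table as well. The falls of these genes were thus partly set by the listing rule, and the 4% was not recomputed without such genes. Apart from them, MYB34, CYP79B3, SOT18 and ESM1 fell at both times. Light, age, dose and time differ together between the experiments, and the tables were normalized separately, so levels are set side by side without a test. The summed RPKM of the listed genes in each table was 660.0 and 605.0 in DIG1 seedlings and 674.9 and 737.8 in DIG2 seedlings, against 674.5 and 767.7 in GFP seedlings at 4 h. At 10 d the sums were 2171 and 1982 RPKM in DIG1 seedlings, against 4855 and 3769 in GFP seedlings. Indole P450 sums were 25.6 and 30.1 RPKM in DIG1 seedlings and 18.9 and 26.7 in DIG2 seedlings, against 33.2 and 56.8 in GFP seedlings at 4 h, and 43.5 and 35.9 in DIG1 seedlings, against 280.3 and 333.0 in GFP seedlings at 10 d.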

How the data were processed

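PolyA RNA-seq libraries of whole seedlings were analysed from the authors' deposited tables, 1 for each experiment. Per the file headers the deposited values are RPKM for each gene and library, with a log2 fold change and an FDR (an adjusted p-value) for each line over GFP. HTSeq 0.5.4, edgeR 3.6.2 and the build TAIR10 are named in the submitters' processing notes; the aligner is not given in the sources used here. On recovered reads 17352 of 17371 genes at 4 h and 17346 of 17433 at 10 d reached 2 CPM in at least 2 libraries, the rule in the deposited file names. RPKM values were tested with limma 3.58.1 in R 4.3.3 on log2(RPKM + 0.5) with a variance trend, two-sided, with Benjamini-Hochberg adjustment over all genes of a table and a threshold of 0.05. The fit at 4 h used 6 libraries and that at 10 d 4. Whole reads were recovered from the RPKM steps (tolerance 0.001 read; 100% of genes at 4 h, 99.98% at 10 d) and used for depth, exact intervals and 1 alternative. Replicates differed by more than sampling noise. Scripts were tested on simulated data. Members and lists were chosen with earlier results of these data known, and all measured members are reported by role, with up to 4 called genes for each list in the sensitivity checks. Neighbours, windows and coding identity came from RefSeq TAIR10.1.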

Additional observations from a re-analysis of the deposited data

Results flagged for a closer look

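DIG1 and DIG2 differed by a direct test at 4 h in 3 genes of the set and its related lists. The difference, DIG1 minus DIG2 on the log2(RPKM + 0.5) scale, was −1.05 for MYB122 (limma adjusted p = 0.046), 0.70 for APR2 (limma adjusted p = 0.0278) and −0.80 for BGLU30 (limma adjusted p = 0.0288). MYB122 and APR2 lost the call without any of the DIG1 or DIG2 libraries, and BGLU30 without DIG1 replicate 1, DIG1 replicate 2 or DIG2 replicate 1.

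In 7 genes both DIG1 libraries lay on opposite sides of both GFP libraries at 4 h and at 10 d; the difference between the experiments was not tested. In the glucosinolate set these were MYB51, with log2 changes of −0.42 at 4 h and 0.68 at 10 d, and GGP1, with 0.29 and −1.29. In the related lists 5 genes did so. MYC4 had 0.18 at 4 h and −0.40 at 10 d, GTR1 0.26 and −0.64, SDI1 0.87 and −1.64, NIT3 0.40 and −0.66, and ASA1 0.16 and −0.25. Over all genes in both tables, 1839 of 16393 (11.2%) lay on opposite sides, and 2 of the 18 glucosinolate genes (11.1%) did.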

How the results depend on the processing

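Of the values recomputed with all libraries kept, 408 of 412 for DIG1 at 10 d, 228 of 248 for DIG1 at 4 h and 249 of 256 for DIG2 at 4 h kept their direction and their side of the threshold. Without the variance trend, the glucosinolate genes that fell in DIG1 at 4 h numbered 3, all genes that rose in DIG1 numbered 329 and in DIG2 762, and between DIG1 and DIG2 38 genes were higher and 111 lower. Fitted on only DIG1 and DIG2, 65 genes were higher. The single glucosinolate call between DIG1 and DIG2 became 0 with a pseudocount of 1 RPKM, a mean of at least 1 RPKM, no variance trend, the replicate block, only those 2 groups, or limma-voom on recovered reads, which was chosen after seeing the data. With 1 library left out, the glucosinolate genes that fell ranged from 1 to 8 in DIG1 at 4 h, 4 to 7 in DIG2, 0 to 0 in DIG1 against DIG2 and 26 to 30 at 10 d, and those that rose from 0 to 1 in DIG2 and 1 to 3 at 10 d. Over all genes, the ranges were 141 to 536 higher and 335 to 1043 lower in DIG1 at 4 h, 406 to 1311 and 509 to 1338 in DIG2, 20 to 87 and 88 to 207 in DIG1 against DIG2, and 3862 to 4592 and 4227 to 4917 at 10 d. Such fits have fewer samples, and the lone library of a group is taken to vary like the others. Signs flipped only in these fits, for genes with no call in the full fit. For DIG1 against GFP at 4 h the log2 changes ran from −0.078 to 0.95 for CYP81F2, −0.046 to 0.18 for IPMDH3, −0.011 to 0.074 for IPMI LSU1 and −0.0038 to 0.12 for TGG2. For DIG2 against GFP they ran from −0.66 to 0.37 for CYP81F2, −0.057 to 0.21 for GGP1, −0.14 to 0.071 for IPMI LSU1, −0.20 to 0.25 for MYB122, −0.43 to 0.55 for TGG2 and −0.58 to 0.053 for UGT74B1. Between DIG1 and DIG2 they ran from −0.45 to 0.20 for MYB34 and −0.27 to 0.44 for SOT18. Same-numbered libraries deviated together by correlations of −0.0088, 0.017 and 0.16 at 4 h and 0.041 at 10 d, so the numbers were not taken as pairs; with the replicate block 9 glucosinolate genes fell in DIG1 at 4 h, 6 in DIG2 and 0 against DIG2, while 30 fell and 3 rose at 10 d. The 2 count-based tests listed as alternatives were not run, since the deposited values are RPKM. The cause of these shifts was not tested. Depth limits the low genes: MYB76, MYB122, MAM3, CYP79B2, CYP81F2 and ESP had 15 or fewer reads in some libraries.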
